A study of Mus musculus with 8 samples.

Results

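The nuclei described here are granulocyte-biased progenitors of mouse bone marrow that hold transcripts of the primary granule proteins. They were picked from single-nucleus RNA counts (unique molecular identifiers, UMIs, each standing for 1 captured transcript). A member had at least 5 UMIs of Mpo, at least 4 of Elane, Prtn3, Ctsg and Ms4a3 together, at most 1 of the monocyte genes Irf8, Csf1r and Ly86 together, and at most 5 of the secondary granule genes Camp, Ngp and Ltf together. The rule found 382 of 8708 nuclei, or 4.39% (exact binomial 95% interval 3.97 to 4.84%). They are called granule protease progenitors below. The study sorted lineage-negative, Sca1+, ckit+ marrow cells, the fraction with stem cells and early progenitors, of WT mice and their T58A littermates, which carry a MYC point mutation, and profiled their nuclei with the 10x multiome assay. Each genotype had 2 RNA libraries and 2 chromatin accessibility libraries, each from 2 mice, and the accessibility libraries were not used. Strain, age and any treatment of these mice are not given in the sources used here. All nuclei came in 1 table with 4 barcode sets, numbered 1 to 4, that no source ties to a genotype or replicate. Its name gives only T58A, which leaves it uncertain whether WT nuclei are in it too, and the genotypes were not compared. The table counts as a single sample here, so no p-values were computed. Intervals are 95% exact intervals for counting error only, and for the main genes the value in each set is given beside the pooled one.

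Granulocyte-biased progenitors arise when multipotent cells take the neutrophil path. At the promyelocyte stage the cell makes the contents of the azurophil or primary granules, among them myeloperoxidase (Mpo) and the serine proteases neutrophil elastase (Elane), proteinase 3 (Prtn3) and cathepsin G (Ctsg). They are made in the endoplasmic reticulum, the proteases are activated by cathepsin C, and packing involves the proteoglycan serglycin (Srgn). Mpo also needs heme. C/EBP alpha, PU.1, RUNX1, Myb and Gfi1 are known regulators of these genes, while Irf8 favours the monocyte path, and the secondary granule proteins such as lactoferrin (Ltf) follow later.

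The members had a median of 6764.5 UMIs, from 1320 to 24773, against 4040 in all other nuclei. They numbered 97, 79, 102 and 104 in sets 1 to 4, which was 3.23, 10.96, 3.70 and 4.66% of the nuclei of each set. Set 2 was the smallest set, with 721 nuclei, and had the highest share of members. It was also the deepest: all nuclei of sets 1 to 4 had medians of 3035, 6764, 3638.5 and 5930.5 UMIs. The rule used raw UMIs, so more nuclei can pass its minimums in a deeper set. The part of depth in these shares was not tested. Sets 1 and 3 stood apart from sets 2 and 4 in depth and in mitochondrial RNA. Their members had medians of 5009 and 5511.5 UMIs with 30.3 and 28.7% mitochondrial UMIs, against 10324 and 8761.5 UMIs with 10.5 and 11.4%. Counts of called genes were also taken in nuclei matched on depth and with scaling to non-mitochondrial UMIs. Wherever that scaling is named, the rule's genes were left out of the total as well. Matching paired nuclei of the same set within 1.25-fold of each other's depth, so depth was brought closer within pairs but not made equal. Among all nuclei, 36 barcode sequences occurred in more than 1 set, on 72 nuclei, of which 3 were members. With every nucleus thinned to 2000 UMIs, the rule found 197 of 7548 nuclei, or 2.61%.

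The rule fixed the levels of its own genes, which are given as a description. Of the 1212 nuclei with at least 5 Mpo UMIs, 590 had at least 4 protease UMIs, 387 of these had at most 1 monocyte gene UMI, and 382 passed the last clause. At the protease threshold, 52 members had 4 protease UMIs, and 75 nuclei that met the other clauses had 3. At the other thresholds, 15 members had 5 Mpo UMIs and 11 nuclei were just outside with 4, while 104 members had 1 monocyte gene UMI and 45 nuclei were just outside with 2. The members form a range cut by counts rather than a separate cloud, as the plot of Mpo against protease UMIs shows. A member had a median of 20.5 Mpo UMIs, from 5 to 195, and of 9 protease UMIs, from 4 to 221.

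**Figure D1:**
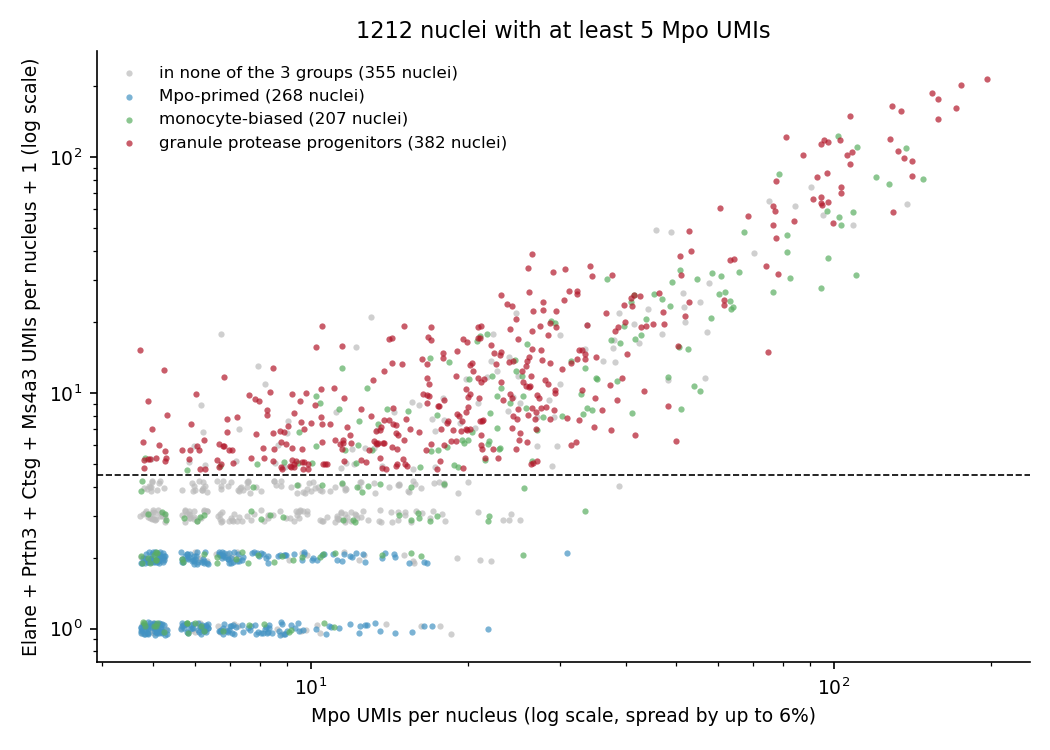
Mpo UMIs (horizontal) against the summed UMIs of Elane, Prtn3, Ctsg and Ms4a3 plus 1 (vertical), on log axes. The 1212 nuclei with at least 5 Mpo UMIs are shown, 1 point per nucleus, with a small random spread on both axes. Colours mark granule protease progenitors, Mpo-primed nuclei, monocyte-biased nuclei or none of these. The 382 members fill the area above the protease threshold together with monocyte-biased nuclei, with no gap at the threshold.

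Levels below are UMIs of a gene per 1000000 UMIs (CPM), summed over the nuclei of a group. Mpo was at 3019, 4270.3, 2979.5 and 4222 CPM in sets 1 to 4 of the members. Elane was at 420.3, 1133, 489 and 968 CPM. Prtn3 was at 641, 1364, 560.3 and 1087 CPM. These 3 genes were lower in sets 1 and 3 than in sets 2 and 4. Ctsg was at 302, 694, 419 and 465 CPM. Ms4a3, a membrane protein of granulocyte progenitors, was at 136, 265, 115 and 235 CPM. Both had the same order, although Ctsg of set 3 lay close to that of set 4. Together the 5 genes made up 0.629% of the members' UMIs, and 0.00975% in 446 erythroid reference nuclei (at least 6 UMIs of Car1, Ermap, Kel and Epor), which should lack them. Elane had a UMI in 73.3% of members and in 4.04% of the reference nuclei, whose median depth of 9646 UMIs was higher than the members'. The proteases were often found together: 152 members (39.8%) had all 4 genes, 124 had 3, 92 had 2 and 14 had 1. Ms4a3 was the only one missing in 81 of the 124. Ctsg held 16.9 to 26.5% of the protease UMIs of a set and Elane 28.0 to 35.1%, so the share of these genes in the mix moved less between sets than their levels did.

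The label was checked against granulocyte progenitor markers that the rule did not use, and these did not all set the members apart. Prss57, a further serine protease of the azurophil granule, had a UMI in 29.8% of members and in 2.02% of the erythroid reference nuclei. It had a UMI in 16.9% of the monocyte-biased nuclei defined below. Gfi1, a repressor needed for neutrophil formation, was at 52.6 CPM, and Nkg7, a granule membrane protein, at 78.0 CPM. With nuclei thinned to 2000 UMIs, Gfi1 had a UMI in 8.73% of members, 2.28% of Mpo-primed and 2.42% of monocyte-biased nuclei, both defined below. For Nkg7 these shares were 10.8, 3.80 and 2.90%. Cebpe, which drives the secondary granule stage, was low at 9.31 CPM with a UMI in 28 members, and Fcnb (ficolin B) was at 8.34 CPM. In thinned nuclei, Cebpa, Fcgr3 and Serpinb1a also had higher shares in members than in Mpo-primed and monocyte-biased nuclei. Plac8 was found in 38.4% of members, above 24.7% of Mpo-primed but below 47.3% of monocyte-biased nuclei. Ctsc was found in 5.56% of members, against 7.60 and 7.73% of these groups. Csf3r was found in 17.99% of members, below 23.95% of Mpo-primed but above 16.47% of all other nuclei. Srgn was level with Mpo-primed nuclei, at 61.4 against 61.6%. The gene of the sort marker Sca1, Ly6a, was at 3.53 CPM with a UMI in 11 of 382 members and at 8.64 CPM in all other nuclei, so its RNA was near 0 throughout. Kit was at 413 CPM in the members.

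Promoters are shown for the 4 granule genes of the rule whose products share the azurophil granule. That their transcripts occurred together in the members follows in part from the rule, which asked for Mpo and for the summed proteases. Each run holds the 250 bases before the gene's start in GRCm38.p6 (the assembly behind mm10), from RefSeq, 5′ to 3′ on the gene's strand, with the letters GAGGAA in capitals. Elane lies at chr10:79886312-79888216 and Prtn3 is its neighbour at chr10:79879667-79883174. Mpo lies at chr11:87793784-87804412 and Ctsg at chr14:56099885-56102574. The windows are chr10:79886062-79886311, plus strand (Elane), chr10:79879417-79879666, plus strand (Prtn3), chr14:56102575-56102824, minus strand (Ctsg) and chr11:87793534-87793783, plus strand (Mpo).
Elane: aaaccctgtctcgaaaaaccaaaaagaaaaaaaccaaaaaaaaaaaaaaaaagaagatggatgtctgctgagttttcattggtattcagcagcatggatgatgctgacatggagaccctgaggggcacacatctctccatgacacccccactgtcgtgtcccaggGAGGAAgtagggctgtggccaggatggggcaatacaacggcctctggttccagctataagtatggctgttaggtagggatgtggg
Prtn3: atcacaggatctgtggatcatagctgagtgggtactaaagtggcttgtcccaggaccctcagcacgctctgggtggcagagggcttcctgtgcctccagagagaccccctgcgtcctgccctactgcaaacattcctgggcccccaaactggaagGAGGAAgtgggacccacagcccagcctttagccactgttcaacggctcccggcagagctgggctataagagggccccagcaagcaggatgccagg
Ctsg: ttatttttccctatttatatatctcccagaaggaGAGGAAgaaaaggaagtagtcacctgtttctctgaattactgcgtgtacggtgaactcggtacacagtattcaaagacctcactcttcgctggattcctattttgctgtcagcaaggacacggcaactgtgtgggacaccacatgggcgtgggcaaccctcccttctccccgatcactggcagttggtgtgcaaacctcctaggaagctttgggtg
Mpo: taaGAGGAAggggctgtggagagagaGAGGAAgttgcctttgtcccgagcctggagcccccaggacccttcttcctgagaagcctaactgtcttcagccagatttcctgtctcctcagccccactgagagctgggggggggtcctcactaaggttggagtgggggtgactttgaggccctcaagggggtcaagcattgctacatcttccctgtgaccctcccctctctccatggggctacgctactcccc
Motifs were searched on both strands from 250 bases before to 50 after the start: GAGGAA (a core bound by PU.1), TTGCNNAA (C/EBP), TGTGGT (RUNX) and CACGTG (E-box, bound by MYC). No match of 1 motif overlapped a match of another in these genes. The first base of GAGGAA stood at -85 in Elane, -95 in Prtn3, -216 in Ctsg, and -247 and -224 in Mpo, counted from the start. It was also found at 35 bases after the start of Ms4a3, so all 5 granule genes of the rule held it. Of 32851 RefSeq promoter windows of this length, 28.3% held it. Alas1 was searched too, in 2 windows, and held no match of any of these motifs. A RUNX match stood at -79 in Ctsg and a C/EBP match at 41 bases after the start of Ms4a3, against 16.8 and 10.8% of all windows. CACGTG, in 7.15% of windows, was in none of the 5. These windows and motifs were chosen after their matches had been seen, and a match describes letters, not binding.

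The main comparison set the members beside Mpo-primed nuclei, which met the same Mpo threshold and the other clauses but had at most 1 protease UMI. There were 268, with a median of 6189.5 UMIs, and of 6 Mpo UMIs against the members' 20.5. Matching on depth kept 258 nuclei of each group. Their medians were 7498 UMIs in the members and 6279.5 in the Mpo-primed nuclei, so the matched members were still deeper. Protease UMIs chose both groups, so the counts of genes called are descriptions. A gene was called higher or lower where pooled CPM plus 10 differed at least 1.5-fold and in the same direction in all 4 sets, among genes with 50 or more counts in the 2 groups together. Of 8305 genes, 268 (3.23%) were called higher in the members and 383 (4.61%) lower, with a median log2 ratio of -0.10 over all genes. Genes were ranked by the ratio of CPM plus 10, and folds printed below are ratios of CPM without the added 10. Mitochondrial genes held 17.9% of the members' UMIs and 14.7% of the Mpo-primed nuclei's. With scaling to the other genes, the rule's genes left out as well, the higher calls went from 41.2 to 52.4% of all calls.

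Most measured genes of a list of the primary granule and its processing, called granule genes here, were called higher in the members. The rule's own genes were not in it. Of 17 measured, 11 were called higher and 0 lower, with a median log2 ratio of 0.74. The 11 include Calr and Canx, also counted in the endoplasmic reticulum list, and Alas1, also counted for heme synthesis, so these lists are not separate. Prss57 was at 32.3, 74.8, 39.9 and 84.0 CPM in sets 1 to 4 of the members and at 11.5, 20.5, 11.2 and 3.74 CPM in those of the Mpo-primed nuclei. Its sets did not overlap, and the pooled level was 6.35-fold (3.96 to 10.8) higher. Nkg7 was at 23.3, 123, 23.3 and 99.5 CPM against 23.0, 36.0, 5.58 and 8.73 CPM, 4.77-fold (3.28 to 7.18) higher when pooled. The sets of Nkg7 overlapped, and in set 1 the groups were level. Cd63, a granule membrane tetraspanin, was at 66.5, 211, 74.8 and 149.7 CPM against 25.9, 53.9, 50.2 and 57.4 CPM, 2.80-fold (2.23 to 3.54) higher. All sets of the members lay above those of the Mpo-primed nuclei for Cd63. The serpin Serpinb1a, an inhibitor of these proteases, was at 80.2 against 25.8 CPM, and Cst7 (cystatin F), an inhibitor of cathepsin C, at 42.7 against 9.49 CPM. Serpinb1a has near-identical family copies that may share its reads. The exocytosis genes Rab44, Rab27a and Lyst were also called higher. The protease activator and the packing proteoglycan were not: Ctsc was at 28.6 against 37.4 CPM and Srgn at 659 against 541 CPM.

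**Figure D2:**
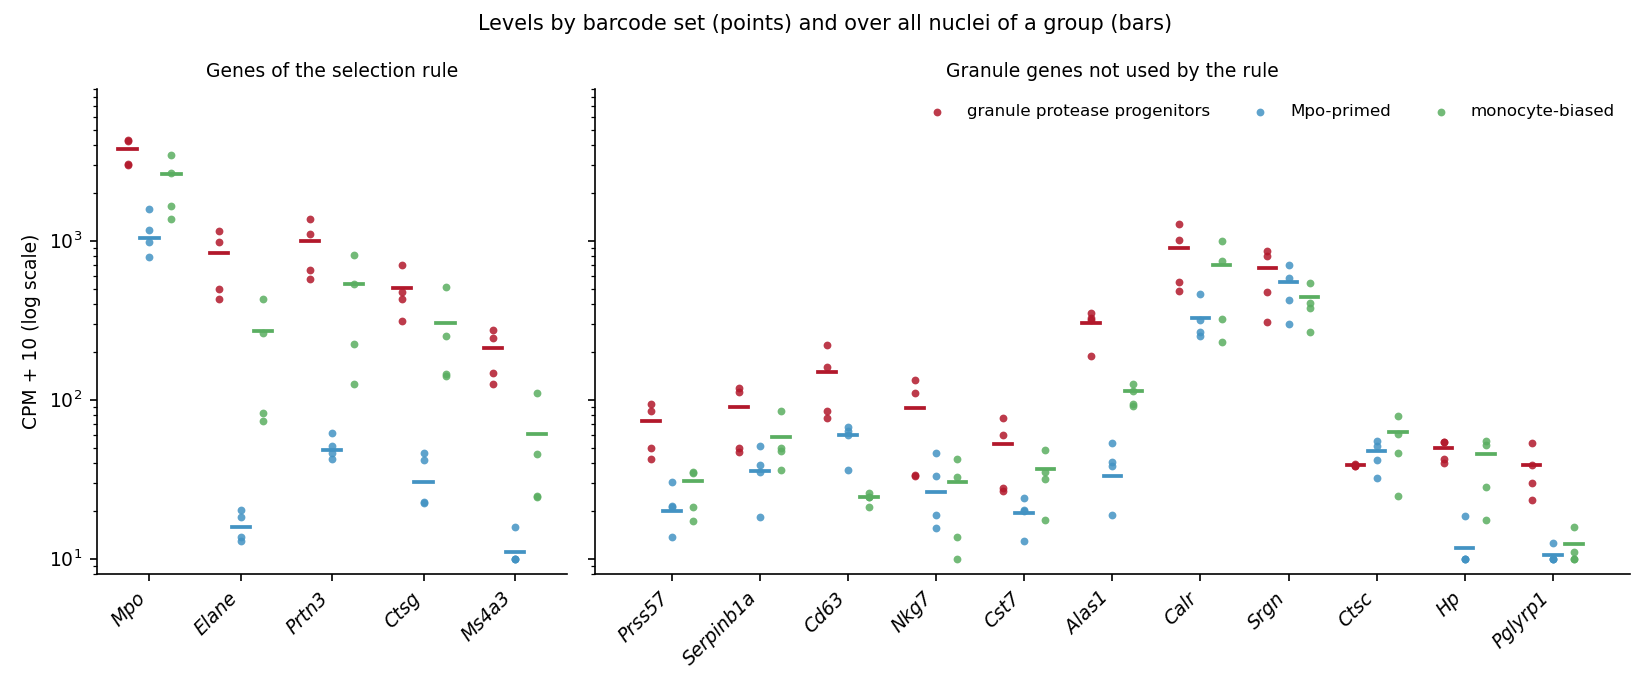
CPM plus 10 (vertical, log axis) of the rule's granule genes, left, and of further granule and processing genes, right. Groups are granule protease progenitors, Mpo-primed and monocyte-biased nuclei, with points for barcode sets and bars for the pooled value. Prss57, Cd63 and Alas1 of the members lie above every set of the Mpo-primed nuclei, while the points of Ctsc and Srgn overlap.

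Alas1, which makes the first step of heme synthesis, was second in rank among called genes with at least 200 counts, the rule's genes apart. It was at 314, 306, 178 and 343 CPM in sets 1 to 4 of the members and at 43.1, 28.2, 30.7 and 8.73 CPM in those of the Mpo-primed nuclei. All sets of the members were above all sets of the Mpo-primed nuclei, and the pooled level was 12.7-fold (9.40 to 17.6) higher. Of 7 measured genes of heme synthesis, Alas1 was the only one called higher and none was called lower.

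Genes of folding and secretion in the endoplasmic reticulum were the list with the most genes called: 16 of 29 measured were called higher and 0 lower, with a median log2 ratio of 0.80. The chaperone calreticulin (Calr), also counted in the granule list, was at 537, 1269, 476 and 993 CPM in the members' sets and at 256, 452, 243 and 307 CPM in the Mpo-primed nuclei's, 2.83-fold (2.59 to 3.10) higher. All sets of the members lay above those of the Mpo-primed nuclei. The disulfide isomerase P4hb was at 236 against 74.8 CPM, 3.15-fold (2.63 to 3.80) higher. The chaperones Hspa5 (BiP) and Hsp90b1 were at 1012 against 508 CPM and 903 against 395 CPM. Ern1, a sensor of unfolded protein, was at 514 against 291 CPM and called higher, while its target Xbp1, at 51.0 against 36.4 CPM, was not called. Of 19 lysosomal hydrolase genes, 4 were called higher (Ctsz, Ctsb, Lamp2 and Arsb), with a median of 0.28. This count was 7 with scaling to non-mitochondrial UMIs and 5 at matched depth.

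**Figure D3:**
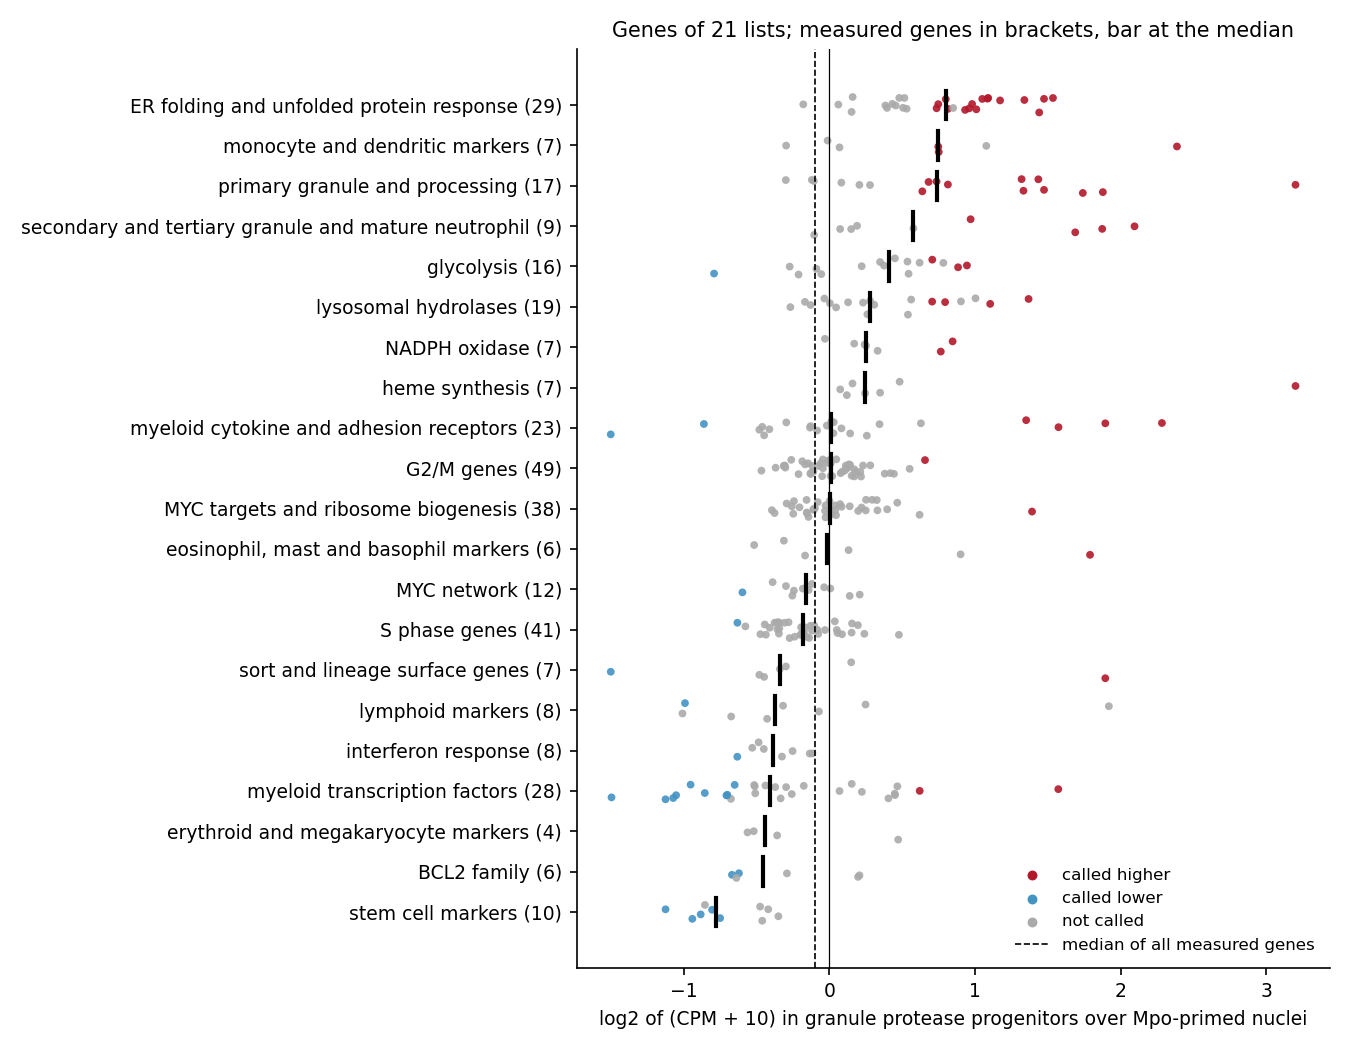
Log2 ratio of granule protease progenitors over Mpo-primed nuclei (horizontal, from CPM plus 10) for 21 gene lists (vertical); each point is a measured gene, the bar is the list's median and the dashed line the median of all genes at -0.10. The endoplasmic reticulum and primary granule lists have medians of 0.80 and 0.74, and the stem cell list -0.78.

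First in rank was Chd7, a chromatin remodeller. It was at 62.9, 116, 99.8 and 188 CPM in sets 1 to 4 of the members and at 2.88, 2.57, 5.58 and 3.74 CPM in those of the Mpo-primed nuclei, so the sets lay far apart. The pooled levels of 127 and 3.69 CPM differed 34.5-fold (16.6 to 86.5). Next after Alas1 came Gda (guanine deaminase) at 148 against 9.49 CPM and the adhesion molecule Ncam1 at 107 against 7.38 CPM. The sphingolipid enzymes Sgms2 (84.4 against 4.22 CPM) and B4galt6 (158 against 29.0 CPM) were also among the 12 highest, as was the kinase Rps6ka2 (108 against 14.8 CPM). Besides Prss57, the other genes of the 12 were Mtus1, a microtubule-associated protein, at 15.0-fold (7.74 to 33.1), and the surface proteins Ly6c2 at 14.1-fold (7.31 to 31.4), Igsf6 at 10.3-fold (5.90 to 19.7) and Clec12a at 6.01-fold (4.65 to 7.90). Ly6c2 has a near-identical neighbour that may share its reads.

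The 12 genes lowest in rank were led by Tox, Gulp1 and Flt3. Flt3, the cytokine receptor of multipotent and lymphoid-primed progenitors, was at 70.0, 180.0, 69.8 and 100.4 CPM in the members and at 259, 465, 279 and 334 CPM in the Mpo-primed nuclei. Its sets did not overlap, and the pooled level was 2.99-fold (2.62 to 3.42) higher in the Mpo-primed nuclei. Tox, a nuclear factor of lymphoid cells, was at 8.98, 36.9, 21.6 and 30.9 CPM against 60.4, 208, 25.1 and 162 CPM, 4.71-fold (3.66 to 6.11) higher in the Mpo-primed nuclei, but was no longer called where members needed at least 6 protease UMIs. Egr1, an immediate early factor, was at 80.8, 55.3, 145 and 103 CPM against 101, 152, 446 and 347 CPM, 3.01-fold (2.61 to 3.49) higher in the Mpo-primed nuclei. The set ranges of Egr1 overlapped. Also among the 12 were Gulp1 (21.5 against 86.4 CPM), the cGMP-dependent kinase Prkg1 (247 against 693 CPM), the G protein regulator Rgs1, the platelet and leukocyte protein Plek (102 against 286 CPM), the TGF beta co-receptor Tgfbr3 (22.1 against 73.3 CPM), 2610307P16Rik, Samd12, Ccser1 and Rnf150.

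Myeloid transcription factors were called lower more often than higher. Of 28 measured, 2 were called higher and 9 lower, with a median log2 ratio of -0.40. The 2 higher factors were Gfi1 and Cebpa. Gfi1 alone was called higher in nuclei matched on depth (1 higher and 11 lower of 26), without the 5% deepest nuclei, with the mean of CPM over nuclei and without any 1 set. Gfi1 was at 43.1, 43.4, 36.6 and 75.3 CPM in sets 1 to 4 of the members and at 11.5, 18.0, 8.37 and 8.73 CPM in the Mpo-primed nuclei, 4.76-fold (3.01 to 7.89) higher with no overlap. Cebpa, the C/EBP alpha gene, was low at 13.5 against 5.27 CPM, 2.56-fold (1.26 to 5.72) higher. The 9 lower factors were Meis1, Egr1, Bach2, Sox4, Tcf4, Mef2c, Jun, Fos and Elf1. Meis1, a homeobox factor of stem cells that counts in both lists, was at 307, 813, 364 and 532 CPM against 564, 1664, 862 and 1388 CPM. Its sets overlapped between groups. The members were lower within each set, which the call itself requires, and the pooled level was 2.20-fold (2.07 to 2.34) higher in the Mpo-primed nuclei. Mef2c was at 609 against 1188 CPM and Sox4 at 198 against 316 CPM. The factors with known binding at granule genes were otherwise not called: Spi1 (PU.1) was at 50.4 against 44.3 CPM, Runx1 at 1854 against 2339 CPM and Myb at 931 against 670.4 CPM.

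Stem cell genes were called lower or not at all: 5 of 10 measured, Hlf, Mecom, Mllt3 and Meis1 among them, were called lower in the members and none higher, with a median log2 ratio of -0.78. Without set 4 the count was 3 of 7, and without the 5% deepest nuclei 8 of 9. Mecom, a zinc finger factor of stem cells, was at 178, 554, 181 and 299 CPM against 334, 776, 410.0 and 756 CPM, and Hlf, a stem cell leucine zipper factor, at 64.7, 124, 89.8 and 167 CPM against 118, 198, 162 and 298 CPM. Both overlapped between groups and were lower in the members within each set, which the call itself requires. The pooled levels were 1.87-fold (1.72 to 2.03) and 1.81-fold (1.57 to 2.08) higher in the Mpo-primed nuclei.

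Of 23 cytokine and adhesion receptor genes, 4 were called higher and 2 lower, with a median of 0.01. The higher ones were Clec12a, an inhibitory receptor of myeloid cells, the immunoglobulin receptors Fcgr3 and Fcgr2b, and the interferon gamma receptor Ifngr1. Fcgr3, the gene of CD16, was at 18.0, 36.9, 21.6 and 44.4 CPM in the members and at 0, 2.57, 2.79 and 1.25 CPM in the Mpo-primed nuclei, 20.9-fold (6.96 to 103) higher, and its reads may be shared with near-identical copies. Ifngr1 was at 120.3, 184, 98.1 and 212 CPM against 46.0, 56.5, 33.5 and 53.6 CPM, 3.38-fold (2.70 to 4.26) higher. Neither gene overlapped between groups. The lower receptors were Flt3 and the interleukin 1 receptor Il1r1 (19.9 against 44.3 CPM), and 4 were called lower without set 2. Csf3r, the receptor for the granulocyte growth factor G-CSF, was not called, at 118 against 148 CPM, nor were Kit (413 against 567 CPM) and Cd34 (212 against 299 CPM). Among 7 measured genes of the sort and of surface lineage typing, Fcgr3 was the one called higher and Flt3 the one called lower.

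**Figure D4:**
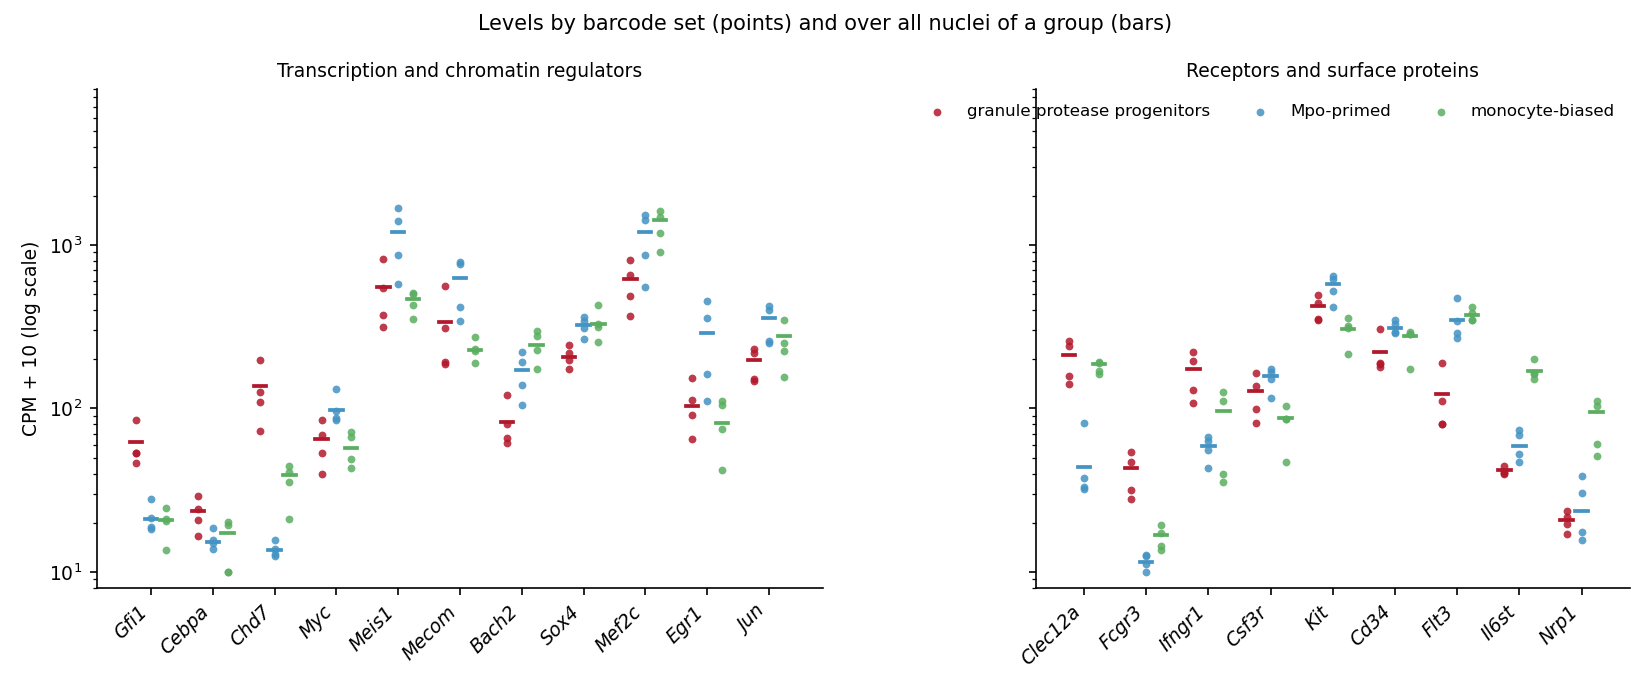
CPM plus 10 (vertical, log axis) of transcription factors, left, and receptors, right, in granule protease progenitors, Mpo-primed and monocyte-biased nuclei; points are barcode sets and bars the pooled value. Gfi1, Chd7, Clec12a and Fcgr3 of the members lie above every Mpo-primed set, and Flt3 below, while Kit, Cd34 and Csf3r overlap.

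Markers of later neutrophils were scarce but present. Of 26 genes of secondary and tertiary granules and mature neutrophils, 9 were measured and 4 called higher: Hp (haptoglobin), Ltb4r1 (the leukotriene B4 receptor), Pglyrp1 (a bactericidal granule protein) and Tcn2. Pglyrp1 was at 19.8, 43.4, 13.3 and 29.0 CPM in the members and at 0, 2.57, 0 and 0 CPM in the Mpo-primed nuclei, and Hp at 32.3, 44.5, 29.9 and 44.4 CPM against 8.63, 0, 0 and 0 CPM. Neither overlapped between groups. The whole list summed to 284 to 342 CPM over the members' sets and to 91.0 to 193 CPM in the Mpo-primed nuclei, with Mmp9, Mmp25, Ly6g, Fpr1, Olfm4 and Ifitm6 at 0 in the members. Fcnb, at 0 in the Mpo-primed nuclei, was at least 5.28-fold higher in the members, against a floor of 3 counts over that group. Of 18 monocyte and dendritic markers, 7 were measured and 3 called higher: Ccr2, F13a1 and Ly6c2. F13a1 was at 95.3 against 52.7 CPM. Summed, this list was at 1232 to 1712 CPM over the members' sets and at 1045 to 1428 CPM in the Mpo-primed nuclei, with Batf3 and Cd300e at 0. The part of such nuclei or transcripts in the other results was not tested.

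The remaining lists gave few calls against Mpo-primed nuclei. Hdc (histidine decarboxylase, of basophils and mast cells) was the 1 gene called higher of 6 eosinophil, mast and basophil markers, at 41.3, 28.2, 23.3 and 57.0 CPM against 2.88, 5.14, 2.79 and 4.99 CPM with no overlap. Of 8 lymphoid markers, Satb1 was called lower at 241 against 489 CPM (3 genes were without set 3, and 2 at matched depth), and of 4 erythroid and megakaryocyte markers none was called. Of 16 glycolysis genes, the hexokinase Hk3, Gpi1 and Pgam1 were called higher and the glucose transporter Slc2a3 lower. The higher count was 7 without set 1, 5 without set 3 and 6 with scaling to non-mitochondrial UMIs. The antiapoptotic Bcl2 (327 against 525 CPM) and Bcl2l1 were called lower of 6 genes of that family, against 1 gene without set 3 and 1 without set 4. Cyba and Ncf1, subunits of the phagocyte NADPH oxidase, were called higher of 7, at log2 ratios of 0.77 and 0.85. Without set 4 these were 0.42 and 0.48, and neither was called. Neither was called at matched depth, at 0.74 and 0.78, and with the mean of ratios within sets Ncf1 was the one called. Of 8 interferon response genes Herc6 alone was called lower, at 58.7 against 96.4 CPM. That call was lost without set 3 (log2 ratio -0.58) and without set 4 (-0.46), while 2 genes were called lower at matched depth.

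Myc itself is the gene that the T58A allele alters, although its genotype cannot be read per nucleus here. It was at 43.1, 74.8, 29.9 and 58.9 CPM in sets 1 to 4 of the members and at 121, 77.0, 75.3 and 86.1 CPM in the Mpo-primed nuclei. The ranges were adjacent and did not overlap, and the pooled levels of 55.2 and 88.5 CPM gave a log2 ratio of -0.60. The call was lost without set 1 (-0.43), without set 3 (-0.51), in nuclei matched on depth (-0.52) and with scaling to non-mitochondrial UMIs (-0.55). Of 12 genes of the MYC network, Myc was the only one called, and of 38 MYC targets and ribosome biogenesis genes, Tmem97, of cholesterol transport, was the one called higher (49.4 against 12.6 CPM) and none was lower. The nucleolar proteins Ncl and Npm1 were at 627 against 626 CPM and 357 against 345 CPM.

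Monocyte-biased nuclei, with at least 5 Mpo UMIs and at least 4 of Irf8, Csf1r and Ly86, gave the comparison across the granulocyte and monocyte paths. There were 207, with a higher median depth of 9561 UMIs. Matching on depth kept 195 nuclei of each group, at medians of 9964 UMIs in the members and 9302 in the monocyte-biased nuclei. They hold the granule proteases too: Elane was at 258 CPM and Prtn3 at 521 CPM in them. Of 8464 genes, 132 (1.56%) were called higher in the members and 312 (3.69%) lower, with 29.7% of calls higher, or 42.5% with scaling to non-mitochondrial UMIs and 43.0% in nuclei matched on depth. Of 17 granule genes, 6 were called higher (Prss57, Srgn, Cd63, Nkg7, Rab44 and Alas1) and none lower. Cd63 was at 66.5, 211, 74.8 and 149.7 CPM in the members and at 14.5, 16.1, 11.2 and 14.5 CPM in the monocyte-biased nuclei, 9.51-fold (6.63 to 14.1) higher and far from overlapping. Alas1 was 2.85-fold (2.46 to 3.31) higher, Chd7 4.37-fold (3.35 to 5.78), Ncam1 5.84-fold (4.20 to 8.33) and B4galt6 4.56-fold (3.57 to 5.88). The nuclear envelope protein Syne1 and the kinase Prkcb completed the 6 highest. No endoplasmic reticulum gene was called in this comparison, 0 of 29 measured, with a median log2 ratio of 0.14 against -0.11 over all genes.

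Monocyte markers that the rule did not use were called lower in the members. The 2 groups were chosen by opposite counts of Irf8, Csf1r and Ly86, so this direction follows in part from the choice and is a description. Of 10 measured monocyte and dendritic markers, 8 were called lower. F13a1 (factor XIII), lowest in rank, was at 144, 79.2, 116 and 71.5 CPM in the members and at 594, 909, 677 and 1090.2 CPM in the monocyte-biased nuclei, which did not overlap, and was 9.66-fold (8.55 to 10.9) higher in the latter. The interleukin 6 co-receptor Il6st was at 30.5, 34.7, 29.9 and 30.9 CPM against 156, 189.7, 153 and 142 CPM, also without overlap. The neuropilin Nrp1 was 7.77-fold (5.37 to 11.6) higher in the monocyte-biased nuclei, Apba1 6.98-fold (5.95 to 8.22), Ms4a6c 5.54-fold (4.39 to 7.05) and Gm2629 5.60-fold (4.41 to 7.17). Of 29 transcription factors, Gfi1, Myb and Gata2 were called higher in the members and 8 lower, Klf4, Zeb2 and Mef2c among them. In nuclei matched on depth these counts were 5 and 5. None of 8 stem cell genes was called, but 3 were called higher at matched depth and 2 without set 1. Of 51 G2/M genes, 3 were called lower in the members, 1 without set 2, 8 without set 4 and 1 at matched depth.

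Neutrophil lineage nuclei, with more than 5 UMIs of Camp, Ngp and Ltf, numbered 80, of which 39 were in set 1, 1 in set 2 and 40 in set 3. Their median depth was 1551 UMIs, so only large differences are described. On simulated data this comparison called 12.1% of unchanged genes (840 of 6922). Of 7076 genes, 1578 (22.3%) were called higher in the members and 524 (7.41%) lower. The pooled ratio used the members of all 4 sets, and only sets 1 and 3 gave the check of direction. Sets 2 and 4 held 79 and 104 members but 1 and 0 neutrophil lineage nuclei. Differences between sets can therefore enter the pooled ratios and folds. Matching on depth kept 39 nuclei of each group, at medians of 4283 UMIs in the members and 3470 in the neutrophil lineage nuclei. Only 1048 genes were measured there, of which 111 were called higher and 106 lower. With the mean of ratios within sets, the higher share of calls went from 75.1 to 53.6%. Genes of the later granules were called lower in the members in 16 of 17 measured, and in all 7 measured at matched depth. S100a9, of the calprotectin complex, was at 28.7 and 26.6 CPM in sets 1 and 3 of the members and at 3291 and 2080.2 CPM in the neutrophil lineage nuclei. Its partner S100a8 was at 16.2 and 15.0 CPM against 1819.8 and 1008 CPM. Lcn2 (lipocalin 2), Cybb and lysozyme (Lyz2) were 211-fold (118 to 416), 82.2-fold (55.7 to 125) and 17.5-fold (13.2 to 23.2) higher in the neutrophil lineage nuclei. Granule genes went both ways, with 8 of 17 called higher and 2 lower. Of 29 endoplasmic reticulum genes, 18 were called higher in the members, and 5 of 9 at matched depth. MYC targets were called higher in 20 of 37, against 11 with the mean of ratios within sets and 2 of 6 at matched depth. NADPH oxidase genes were called lower in the members in 5 of 8. The highest genes were Lrrc4, at least 5.89-fold, Cct3, Spcs2, St8sia4, Wdpcp and Nkg7 (78.0 against 4.23 CPM). Nkg7 had a UMI in only 1.25% of the neutrophil lineage nuclei. In sets 1 and 3 its level in the members, given above, was well below the pooled one. Igkc, an immunoglobulin gene, was among the 6 lowest, at 176, 39.0, 632 and 13.5 CPM in the members' sets 1 to 4 with 33.3% of its counts in 3 members and at 5583 and 865 CPM in sets 1 and 3 of the neutrophil lineage nuclei.

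Against all other 8326 nuclei, 345 of 13125 genes (2.63%) were called higher in the members and 781 (5.95%) lower. The 6 highest were Alas1, Sgms2, Ncam1, Chd7, Prom1 and Gm1604a. Prom1 (prominin 1), a membrane protein, was at 10.8, 60.7, 24.9 and 63.7 CPM in the members and at 0, 0, 2.79 and 0 CPM in the Mpo-primed nuclei. Every set of the members was above the Mpo-primed nuclei, set 1 least, and the pooled level was 30.6-fold (22.6 to 41.7) higher than in all other nuclei. Granule genes were called higher in 11 of 18 and endoplasmic reticulum genes in 19 of 30, with none lower. Cebpe, not measured against Mpo-primed nuclei for lack of counts, was called higher here at 9.31 against 0.657 CPM. Stem cell genes were called lower in 9 of 16, lymphoid genes in 9 of 15 and erythroid and megakaryocyte genes in 10 of 13. The 6 lowest were Slc25a21, Car1, Ighm, Abcb4, Tox and Myo1d. Slc25a21 was uneven, at 109.6, 1.08, 23.3 and 11.6 CPM with 55.7% of the members' counts in 3 nuclei.

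The members varied widely in protease level, so those with the highest and the lowest share of protease UMIs within each set were set side by side, 190 nuclei each. This split was chosen after the data had been seen, and it uses the rule's genes, so it is a description. Protease-high members had 4717 protease CPM and a median of 6019 UMIs, protease-low members 734 CPM and 7775.5 UMIs, with 18.5 and 17.4% mitochondrial UMIs. Of 6846 genes, 264 (3.86%) were called higher in the protease-high members and 455 (6.65%) lower. Granule genes were called higher in 10 of 17 and endoplasmic reticulum genes in 17 of 29, with none lower in either list. The second count was 12 at matched depth and 11 with the mean of CPM over nuclei. Cd63 was at 251 against 48.5 CPM, Ncam1 at 207 against 26.3 CPM and B4galt6 at 290.1 against 52.0 CPM. Sgms2, Ly6c2 and Igsf6 were the other genes of the 6 highest. Prom1 was at 97.9 against 4.09 CPM and Pglyrp1 at 56.9 against 5.25 CPM.

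Stem cell and several transcription factor genes were called lower in the protease-high members. All 7 measured stem cell genes were called lower, and 3 of 5 in nuclei matched on depth. Of 26 transcription factors, Gfi1 and Per3 were called higher and 11 lower, Runx1, Meis1 and Mef2c among them. Runx1 was at 1394 against 2232 CPM and Mef2c at 335 against 832 CPM. Angpt1, a ligand made by stem and progenitor cells, was at 446 against 1957 CPM, and the transporter Slc22a3 at 26.6 against 203 CPM. Flt3 and Cd34 were among the receptors called lower. Lysosomal hydrolases were called higher in 6 of 19, with none lower.

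**Figure D5:**
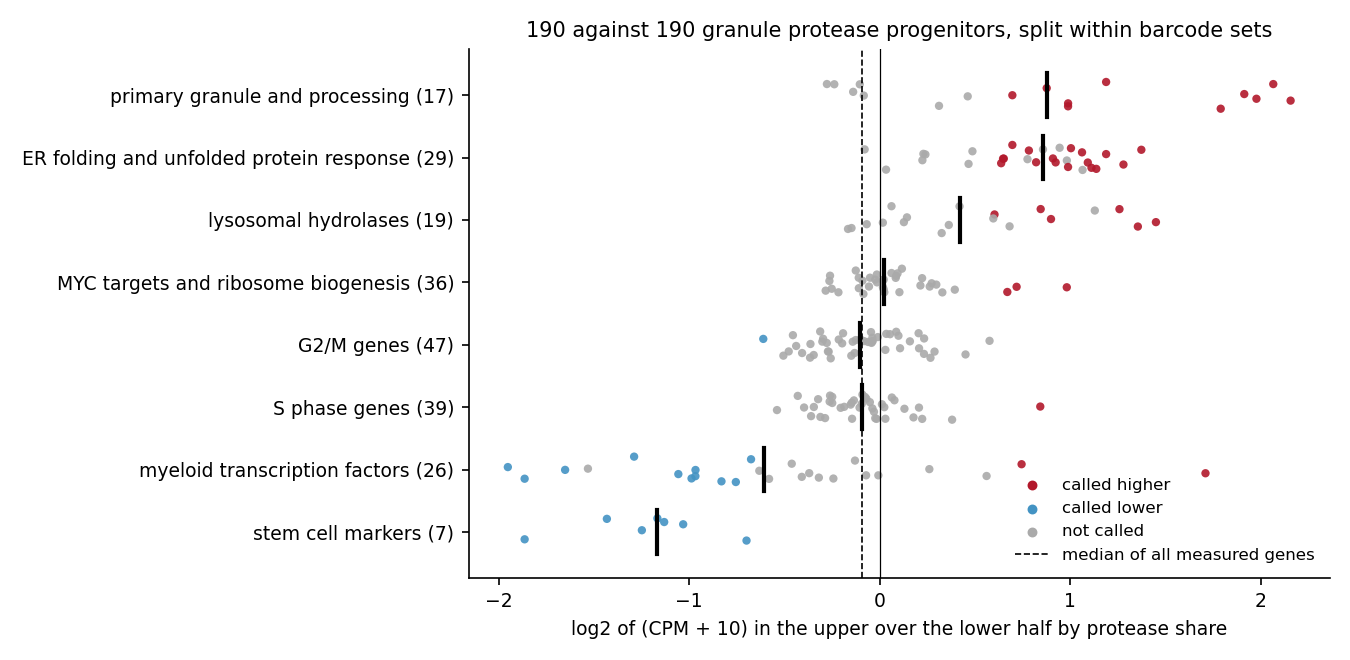
Log2 ratio of protease-high over protease-low members (horizontal, 190 nuclei each, from CPM plus 10) for 8 gene lists (vertical); each point is a measured gene and the bar the list's median. The endoplasmic reticulum and primary granule lists have medians of 0.86 and 0.88, and the stem cell list -1.17.

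Transcripts of cell division genes were detected in most members. With each nucleus thinned to 2000 UMIs, which left out 4 members, 301 of 378 (79.6%, 75.2 to 83.6%) had at least 5 of the G2/M genes, against 96.3% unthinned. By set this was 78.1, 79.7, 68.7 and 91.3%, highest in set 4. The share was 76.0% in Mpo-primed nuclei, and within sets the members were above these in sets 1, 2 and 4 and below in set 3 (68.7 against 71.9%). It was 89.4% in monocyte-biased, 94.7% in erythroid reference and 61.5% in all other nuclei. At least 5 S phase genes were found in 54.5% of thinned members, or 41.7, 79.7, 34.3 and 66.3% in sets 1 to 4. In Mpo-primed nuclei the share was 66.2%, or 55.6, 69.8, 57.9 and 78.0% by set. The members were thus below the Mpo-primed nuclei in sets 1, 3 and 4 and above them in set 2. In monocyte-biased, erythroid reference and all other nuclei the share was 69.6, 56.8 and 49.9%. Free RNA in the droplets can add to such counts, and its part was not tested. Against Mpo-primed nuclei, Brip1 was the only 1 of 41 S phase genes called lower and Cdc20 the only 1 of 49 G2/M genes called higher. Brip1 was not called with scaling to non-mitochondrial UMIs (log2 ratio -0.58), and 5 S phase genes were called lower without set 2. Cdc20 was not called without set 2 (0.53) or with the mean of CPM over nuclei (0.57), and 2 G2/M genes were called higher with scaling to non-mitochondrial UMIs. Members with at least 5 G2/M genes had 2515 protease CPM and those with fewer 2456 CPM. Within sets 1, 3 and 4 the first were lower (1350 against 2061, 1389 against 2076 and 2711 against 3342 CPM) and within set 2 higher (3663 against 2642 CPM), so the sets did not share a direction. The members with fewer G2/M genes numbered only 16 in set 2 and 9 in set 4.

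Of 8 measured genes next to the 5 rule genes, Tspoap1 was the 1 called. Plppr3 and Ptbp1, before Prtn3 on chromosome 10, were at 124 against 96.4 CPM and 76.4 against 74.3 CPM and not called. Cfd (adipsin), a serine protease gene next to Elane, was at 0.963 CPM in the members. On chromosome 11, Tspoap1, next to Mpo, was called higher at 50.1 against 13.7 CPM, while the related peroxidases on the other side were at or near 0 (Lpo at 0 and Epx at 1.60 CPM). On chromosome 14, Mcpt8, a basophil protease gene next to Ctsg, was at 37.2 against 15.3 CPM and not called, with 55.2% of its counts in 3 members, and was called higher without set 3 (log2 ratio 1.47). The mast cell proteases Mcpt4 and Mcpt9 and the granzymes Gzmd, Gzme and Gzmg of the same cluster were at 0. Ms4a2, the next gene to Ms4a3 on chromosome 19, was at 12.5 against 10.5 CPM.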

How the data were processed

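Nuclei of sorted marrow cells were profiled with the 10x multiome assay, per the labels' protocols. The deposited table holds raw UMI counts, whole numbers with no normalization, for 32285 genes in 8708 nuclei. Cell Ranger ARC, Seurat, Signac and the build mm10 are named per the submitters' processing notes; versions, annotation, filters on nuclei and the treatment of doublets are not given in the sources used here, and no doublet caller was run. It had 0 unused columns of per-sample values. Counts were summed per group and barcode set and scaled to CPM. With 1 sample there was no test; a call was a 1.5-fold difference of CPM plus 10 with the same direction in every barcode set that held at least 5 nuclei of both groups, among genes with at least 50 counts. Count ratios have exact conditional binomial intervals and shares exact Clopper-Pearson intervals, at 95%. A group at 0 was given a floor of 3 counts.

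The members and gene lists were chosen with earlier results of these data known. Genes were named by a rule: the 12 highest and 12 lowest ratios among called genes with at least 200 counts against Mpo-primed nuclei, the 6 highest and lowest elsewhere, the 2 largest ratios of each list, the rule's genes, Myc and up to 3 neighbours on each side; others were chosen after their values were seen. The same rule was used for the split of the members. On simulated data, 2-fold changes against Mpo-primed nuclei were called for 96% of 50 higher and 90% of 50 lower genes, with 0.209% of 8118 unchanged genes called. All simulated data held counting error and a set effect common to both groups, but no further spread between nuclei. These shares are therefore not error rates of the real calls. Alternatives changed the fold, the added CPM, the count minimum, the scaling, the depth and the rule, and left out each set. Python 3.11.15, numpy 2.4.6, scipy 1.17.1, pandas 2.3.3 and matplotlib 3.10.9 were used.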

Additional observations from a re-analysis of the deposited data

How the results depend on the processing

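All values here are counts of genes called, unless a share is named. The share of members, 4.39%, was 3.95% with at least 8 Mpo UMIs, 5.25 and 3.22% with at least 3 and 6 protease UMIs, 3.19 and 5.32% with 0 and at most 3 monocyte gene UMIs, 2.61% after thinning, and 3.79 to 4.99% without 1 set. Against Mpo-primed nuclei, higher calls were 112 at 2-fold, 156 with 200 counts and 245 to 356 without 1 set; lower calls were 59, 243 and 279 to 595 (595 without set 2), 599 with 1 CPM added and 594 without the 5% deepest nuclei. Against monocyte-biased nuclei, higher calls were 49 at 2-fold, 213 with 1 CPM, 78 with 200 counts and 134 to 181 without 1 set, and lower calls 76, 480, 186 and 284 to 465. Against neutrophil lineage nuclei, higher calls were 768 at 2-fold, 714 with 200 counts, 111 at matched depth and 1168 to 2520 without 1 set (2520 without set 3), and lower calls 230, 167, 106 and 498 to 734, with 887 from means over nuclei and 972 from ratios within sets. Against all other nuclei, higher calls were 129 at 2-fold, 573 with 1 CPM and 336 to 398 without 1 set, and lower calls 227, 1990 and 652 to 1002. Between protease-high and protease-low members, higher calls were 108 at 2-fold, 131 with 200 counts and 222 to 353 without 1 set, and lower calls 149, 198 and 382 to 573. Against Mpo-primed nuclei at 2-fold, 7 granule, 9 endoplasmic reticulum, 2 lysosomal and 0 glycolysis genes were called higher, and 1 stem cell gene and 4 transcription factors lower. The causes were not tested, beyond fewer genes or a stricter fold. Of 685 log2 ratios of 58 named genes under alternatives, 0 changed sign among called genes and 626 stayed within the counting interval. A call already needed the same direction in every set used, and the alternatives reuse the same counts. Many of these genes were also picked for large ratios, so the absence of sign changes was largely given in advance. The ratios within sets and the removal of shared barcodes were chosen after seeing the data. No paired analysis was possible because no column ties a nucleus to a genotype or replicate number.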

Other observations

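Some values belong in no comparison. Of the nuclei with at least 5 Mpo and at least 4 protease UMIs, 121 also had at least 4 UMIs of Irf8, Csf1r and Ly86, at a median depth of 10538 UMIs, and so carry both programs by counts. Another 44 nuclei had at least 4 protease UMIs with fewer than 5 of Mpo. A few members held most counts of single lineage genes: 91.4% of the members' Ebf1 counts, a B cell factor, lay in 3 nuclei.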
